A study of Mus musculus with 28 samples.

Results

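The Nr4a and Egr immediate early factors were read in naive CD4+ T cells as they were activated with or without TGF-β and IL-4. The group holds 6 of the 24089 genes in the table of RPKM (read counts scaled by gene length and by the mapped reads of the library), Nr4a1, Nr4a2, Nr4a3, Egr1, Egr2 and Egr3, and was chosen by gene name. All cells came from adult Tgfbr1 f/f Ert2-cre+ mice of both sexes, in which tamoxifen lets the Cre recombinase delete the floxed exon of the type I TGF-β receptor. Mice given tamoxifen are called KO and mice given oil are called WT, so both genotypes carry the floxed allele and the Cre, and the effect of the deletion and that of tamoxifen cannot be told apart. Naive CD4+ CD62L+ cells were cultured on anti-CD3 with anti-CD28 in medium (control), TGFb, IL4 or TGFb+IL4. RNA-seq had 3 numbered replicates of each genotype, read here as 3 mice, and DNase-seq 1 library each for control and TGFb+IL4 in WT and KO. Oil and tamoxifen are named in the titles of the DNase-seq samples and not in those of RNA-seq. The time of culture for RNA-seq is not given in the sources used here.

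NR4A proteins are orphan nuclear receptors that bind DNA without a known natural ligand, and EGR proteins are zinc finger factors that bind GC-rich sites. Both families are transcribed within minutes of T cell receptor signaling, from promoters that hold sites for CREB or for serum response factor. In T cells Nr4a1 is widely used as a reporter of receptor signal strength, Egr2 and Egr3 are known from anergy and from the restraint of effector responses, and all 3 Nr4a genes have been tied to tolerance and exhaustion.

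Read counts of single WT libraries, given beside the deposited table, conflict with the headings of its RNA-seq columns. The columns were read by position instead, in the order of the library numbers. Read counts were at hand for 8 WT libraries. By position all 8 of them met their own column, with 99.8% or more of genes sharing zero or non-zero status, against 72.0 to 85.8% for the next best column. By heading only 2 of the 8 did so. The other 4 WT columns, replicate 2 of each culture, and all 12 KO columns had no counts to check against, so the culture of each KO library rests on the order of the columns alone. Both readings give the same genotype to every column, since the 12 WT columns come before the 12 KO columns.

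Targeting was read first. Tgfbr1 was at 3.02 to 3.31 RPKM in WT control and 2.32 to 3.05 RPKM in KO control, and its difference there did not pass the test (limma on log2(RPKM + 1), adjusted p = 0.16). It was at 13.9 to 14.5 RPKM in WT TGFb and 17.6 to 20.7 RPKM in WT TGFb+IL4, against 2.37 to 3.24 and 3.35 to 5.18 RPKM in the matching KO cultures, a log2 difference of -2.05 (adjusted p = 1.29e-06) and -2.04 (adjusted p = 4.37e-05). RPKM cover the whole gene and do not show the deleted exon on its own. Cd3e was at 212.9 to 359.9 RPKM and Cd4 at 75.6 to 122 RPKM in the 24 columns, while the monocyte gene Csf1r was at 0 to 0.433 RPKM, with 3 columns at 0. Other markers were higher, with the monocyte and macrophage gene Lyz2 at 0.111 to 16.7 RPKM. The CD8 gene Cd8b1 was at 11.0 to 30.4 RPKM and the B cell gene Cd79b at 3.12 to 16.4 RPKM, so RNA of other cells was present. The depth of the columns, read from the steps between low values, ran from 0.575 to 1.2 of that of WT control replicate 1, and read numbers are unknown.

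The promoters of the 4 members called in any comparison below, Egr1 and Egr3 aside, are printed for the elements they share. Each line gives the 250 bases before the transcript start nearest to the promoter's DNase I hypersensitive site (DHS), 5′ to 3′ on the gene's strand, from the mm9 genome with GENCODE vM1 starts. Capitals mark the CRE half-site TGACG on either strand, the 8-base CRE TGACGTCA that joins a pair of them, and the CArG box of serum response factor. The windows are chr15:101097027-101097276 (plus strand) for Nr4a1, chr2:56967450-56967699 (minus) for Nr4a2, chr4:48057775-48058024 (plus) for Nr4a3 and chr10:67000367-67000616 (plus) for Egr2.
Nr4a1: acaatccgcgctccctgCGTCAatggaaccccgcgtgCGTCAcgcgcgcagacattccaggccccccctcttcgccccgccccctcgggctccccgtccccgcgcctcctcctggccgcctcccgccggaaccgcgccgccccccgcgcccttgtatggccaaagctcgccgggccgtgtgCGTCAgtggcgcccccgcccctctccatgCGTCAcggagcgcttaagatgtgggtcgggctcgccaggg
Nr4a2: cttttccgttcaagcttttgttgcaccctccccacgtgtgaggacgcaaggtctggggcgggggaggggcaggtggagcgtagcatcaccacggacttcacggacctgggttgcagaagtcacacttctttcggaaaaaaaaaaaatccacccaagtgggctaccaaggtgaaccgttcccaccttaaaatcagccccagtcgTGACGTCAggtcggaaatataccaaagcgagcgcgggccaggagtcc
Nr4a3: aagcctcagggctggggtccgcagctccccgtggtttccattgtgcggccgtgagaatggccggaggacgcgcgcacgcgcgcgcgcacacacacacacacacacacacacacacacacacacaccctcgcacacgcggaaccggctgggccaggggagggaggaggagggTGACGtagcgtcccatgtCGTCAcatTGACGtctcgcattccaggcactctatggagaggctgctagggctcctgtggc
Egr2: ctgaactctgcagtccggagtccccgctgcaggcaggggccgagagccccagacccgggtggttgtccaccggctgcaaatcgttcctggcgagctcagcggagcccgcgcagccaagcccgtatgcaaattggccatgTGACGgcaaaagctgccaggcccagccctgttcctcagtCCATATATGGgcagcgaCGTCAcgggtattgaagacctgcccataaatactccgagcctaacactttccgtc
Nr4a1 held 4 half-sites, Nr4a3 held 3, and Nr4a2 held 2 that form a full CRE. Egr2 held 2 half-sites and 1 CArG box, Egr1 held 2 half-sites and 2 CArG boxes, and Egr3 held neither. Among 46000 such windows, of which many overlap at genes with several starts, 20.0% held a half-site, 0.922% held 3 or more, 0.224% held 4 or more, 1.87% held the full CRE and 1.2% held a CArG box. The half-site was added to the search after the sequences had been seen. None of the 6 windows held the NR4A monomer site AAAGGTCA (1.06% of windows), the EGR site GCGTGGGCG (0.763%), the SMAD palindrome GTCTAGAC (0.152%) or the AP-1 site TGACTCA (3.71%), each searched on both strands. A match or its lack is a description of these letters only.

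Nr4a1 was by far the most abundant member. Its mean over all 24 columns was 119.8 RPKM, at the 90.3 percentile of the 9726 genes with a mean of at least 1 RPKM. Egr1 (30.1 RPKM) and Egr2 (28.2 RPKM) followed, and did not keep an order, since Egr1 was the higher in WT control (28.2 ± 3.23, SD, n = 3, against 25.7 ± 1.06 RPKM) and Egr2 the higher in WT TGFb+IL4 (40.2 ± 2.33 against 28.5 ± 1.05 RPKM). Nr4a2 came next at 12.1 RPKM, then Nr4a3 at 7.06 RPKM, and these 2 also traded places, Nr4a3 being above Nr4a2 in WT TGFb and WT TGFb+IL4. Egr3 was close to the minimum of 1 RPKM used for the tests, at 1.22 RPKM and the 2.8 percentile. Egr4, the remaining EGR gene, ran from 0.395 to 3.44 RPKM.

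**Figure D1:**
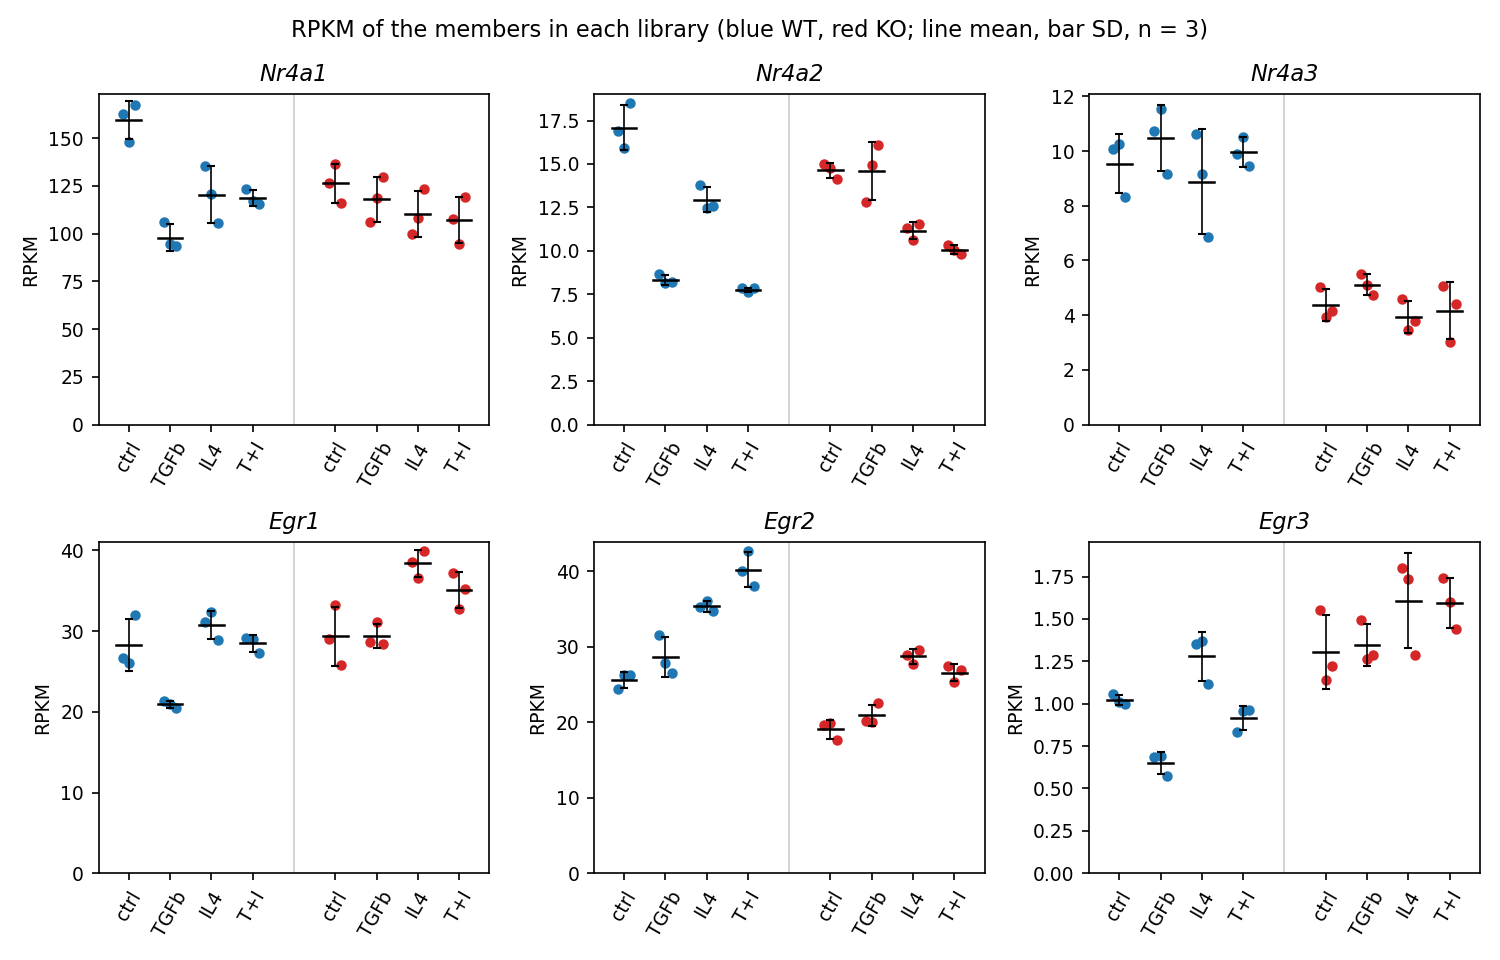
RPKM of each member (y axes) in every library by culture (x axes; ctrl control, T+I TGFb+IL4), with WT in blue and KO in red, lines for the mean and bars for the SD of 3 libraries. Nr4a2 sits between 7.64 and 8.68 RPKM in the 6 WT libraries with TGFb, below the other 6 WT libraries, and Nr4a3 is lower in KO than in WT in every culture.

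The comparison of WT cultures asks which members answered TGF-β and IL-4 in T cells with an intact receptor. In WT cells TGF-β lowered Nr4a1 and Nr4a2 but not Nr4a3, and TGF-β with IL-4 lowered Nr4a2 and raised Egr2. A gene was called at an adjusted p under 0.01 and a change of over 1.5-fold, the thresholds of the study's methods, and "rose" and "fell" are used only of called genes. Fold changes are on the log2(RPKM + 1) scale, which understates those of low genes. Where libraries are said to lie apart, the share of all genes doing so was counted only between genotypes pooled over cultures.

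Nr4a2, an activator that can pair with the retinoid X receptors, was at 16.9, 15.9 and 18.5 RPKM in WT control. It was at 8.68, 8.14 and 8.21 RPKM in WT TGFb, 13.8, 12.5 and 12.6 RPKM in WT IL4, and 7.84, 7.64 and 7.84 RPKM in WT TGFb+IL4. The 6 libraries with TGFb lay below all 6 without it, and those with IL4 alone lay between these and control. Against WT control Nr4a2 fell by 0.95 (SE 0.069, adjusted p = 5.45e-05) on the log2 scale with TGFb and by 1.04 (SE 0.068, adjusted p = 6.27e-06) with TGFb+IL4. With IL4 alone the difference was -0.37 with an adjusted p of 0.024, short of both thresholds. Nr4a2 also fell by 0.67 (SE 0.064, adjusted p = 4.88e-05) from IL4 to TGFb+IL4, whereas TGFb+IL4 differed from TGFb by -0.09 (adjusted p = 0.35).

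Nr4a1, which encodes the NUR77 receptor, was at 163, 148 and 167 RPKM in WT control. It was at 106, 94.4 and 93.7 RPKM in WT TGFb, at 135, 121 and 105.5 RPKM in WT IL4, and at 123, 117 and 115 RPKM in WT TGFb+IL4. Every cytokine culture lay below control, TGFb most of all, and the IL4 libraries spread over the range of TGFb+IL4. With TGFb Nr4a1 fell by 0.70 (SE 0.067, adjusted p = 0.000253). With TGFb+IL4 the difference from control was -0.42 (adjusted p = 0.000404), past the p threshold but under 1.5-fold. The effects of the cytokines on Nr4a1 did not add up, with a positive TGFb by IL4 term of 0.68 (SE 0.12, adjusted p = 0.0037). That term was called for 1 of 5 members tested, Nr4a1, where 1.77% of all genes were called. Its adjusted p rose to between 0.0107 and 0.0125 without WT control replicate 1, WT TGFb replicate 3, WT TGFb+IL4 replicate 1 or WT TGFb+IL4 replicate 3, with values of 0.65 to 0.70, and to 0.013 with no filter on low genes.

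Nr4a3, the third NR4A receptor (NOR1), did not follow its relatives. It was at 10.1, 10.3 and 8.305 RPKM in WT control and 10.7, 11.5 and 9.165 RPKM in WT TGFb. WT IL4 gave 10.6, 9.155 and 6.84 RPKM and WT TGFb+IL4 9.89, 10.5 and 9.47 RPKM. All 4 cultures overlapped, and the differences from control were 0.12, -0.11 and 0.06 with adjusted p from 0.48 to 0.75.

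Among the EGR factors, Egr2 was the member called in a WT comparison, where it rose with TGF-β and IL-4 together. It was at 24.4, 26.2 and 26.3 RPKM in WT control and 31.6, 27.9 and 26.5 RPKM in WT TGFb. It was at 35.3, 36.1 and 34.7 RPKM in WT IL4 and 40.0, 42.7 and 38.0 RPKM in WT TGFb+IL4. All 6 libraries with IL4 were above all 6 without it. In WT IL4 the 2 CD8 T cell markers summed to 29.9 to 36.3 RPKM against 24.8 to 26.9 RPKM in WT control, and the 3 NK cell markers to 5.06 to 6.90 against 3.18 to 3.47 RPKM, and their part in the Egr2 values was not tested. Egr2 rose by 0.63 (SE 0.059, adjusted p = 4.83e-05) with TGFb+IL4 against control. After median-ratio scaling the value was 0.57 with an adjusted p of 9.24e-05, which is under 1.5-fold and ends the call. IL4 alone gave 0.45 (SE 0.051, adjusted p = 0.00175), under 1.5-fold, and TGFb alone gave 0.15 (adjusted p = 0.19). TGFb+IL4 differed from IL4 by 0.18 (adjusted p = 0.022), and the TGFb by IL4 term for Egr2 was 0.03 (SE 0.090, adjusted p = 0.88), neither called.

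Egr1, the best known EGR activator, was at 26.7, 26.1 and 31.95 RPKM in WT control, 31.15, 32.3 and 28.9 RPKM in WT IL4 and 29.1, 29.1 and 27.3 RPKM in WT TGFb+IL4. It was lowest in WT TGFb, at 21.3, 20.9 and 20.5 RPKM, below every other column of either genotype. The difference from control was -0.41 (SE 0.078, adjusted p = 0.0084), and that of TGFb+IL4 from TGFb was 0.43 (SE 0.053, adjusted p = 0.000703), both under 1.5-fold. Egr3 was also lowest in WT TGFb and highest in WT IL4, at a much lower level, with 1.06, 1.01 and 1.00 RPKM in WT control, 0.685, 0.689 and 0.572 RPKM in WT TGFb, 1.35, 1.37 and 1.115 RPKM in WT IL4 and 0.834, 0.955 and 0.960 RPKM in WT TGFb+IL4. Its mean was under the minimum of 1 RPKM in the comparison of WT TGFb with control, and without that filter the difference was -0.30 (adjusted p = 0.011).

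Of the members tested, 2 of 5 were called in WT TGFb against control, where 5.71% of all genes were called, and 2 of 5 in WT TGFb+IL4 against control, where 9.27% were. The count was 1 of 6 for TGFb+IL4 against IL4 (9.28% of all genes). It was 0 of 6 for IL4 against control (1.29% of all genes) and 0 of 5 for TGFb+IL4 against TGFb (3.03%), though in each of these 3 members had an unadjusted p under 0.05 in limma. The headings as deposited gave 0 called members in each WT comparison, with differences for Nr4a2 of -0.30 in TGFb and -0.40 in TGFb+IL4 against control. Levels of markers of other cells also differed between these cultures. The 2 CD8 T cell markers summed to 24.8 to 26.9 RPKM in WT control, 16.6 to 17.3 RPKM in WT TGFb and 25.3 to 26.7 RPKM in WT TGFb+IL4. The 3 NK cell markers summed to 3.18 to 3.47, 1.49 to 1.86 and 2.46 to 3.24 RPKM, and the 4 monocyte and macrophage markers to 3.34 to 5.96, 5.85 to 18.1 and 6.83 to 16.2 RPKM. The B cell markers Cd79a, Cd79b and Ms4a1 summed to 11.95 to 17.6, 9.03 to 11.3 and 14.2 to 28.5 RPKM, and the 3 dendritic cell markers to 0.486 to 0.582, 0.586 to 0.849 and 1.15 to 1.29 RPKM. In WT TGFb+IL4 the CD8 T cell, NK cell and B cell sums overlapped those of control, and the monocyte and dendritic cell sums lay above them. The part of other cells in these results was not tested. Replicates 1 and 3 alone, whose columns were identified by counts, gave the same called members in all 5 WT comparisons.

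**Figure D2:**
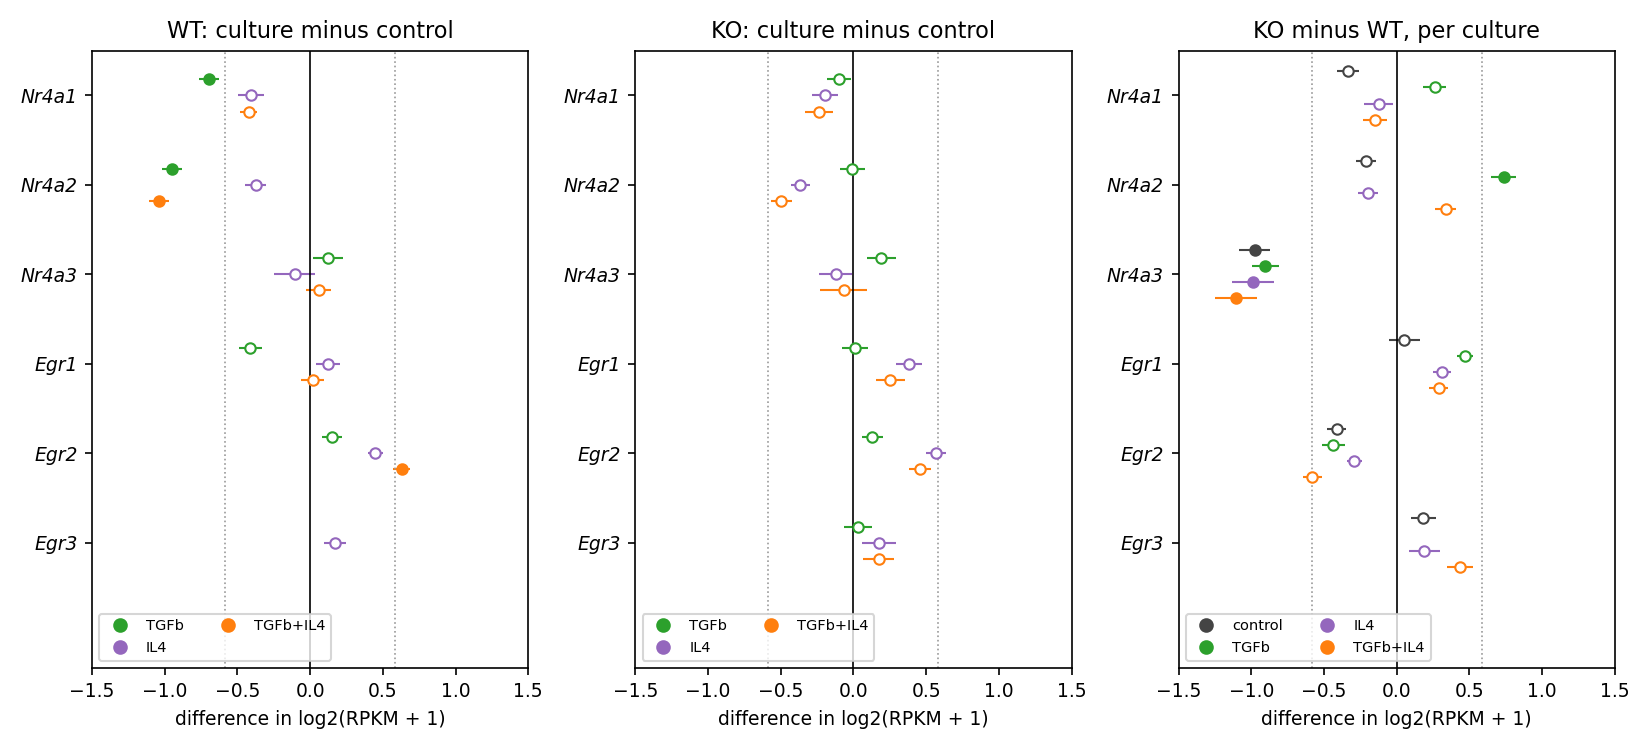
Differences in log2(RPKM + 1) with SE (x axes) for each member (y axes): WT cultures against WT control, KO cultures against KO control, and KO against WT within each culture, from limma fits of 3 libraries a group. Filled points were called, open points were not, dotted lines mark 1.5-fold, and a missing point was under the minimum of 1 RPKM. Nr4a1 and Nr4a2 are to the left with TGFb in WT and near 0 in KO, at -0.10 and -0.01.

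The same cultures of KO cells ask whether these changes need the receptor, with the caution that the KO columns were ordered by position alone. No member was called in any KO culture against KO control. In TGFb, 0 of 6 members were called by limma and none had an unadjusted p under 0.05, where 0.0105% of all genes, 1 gene, were called. Nr4a2 was at 15.02, 14.7 and 14.15 RPKM in KO control and 12.8, 14.96 and 16.1 RPKM in KO TGFb, a difference of -0.01 (SE 0.085). Nr4a1 was at 127, 136 and 116 RPKM in KO control and 106, 119 and 129.6 RPKM in KO TGFb, a difference of -0.10 (SE 0.086). In both genes the KO TGFb libraries overlapped those of KO control.

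The genotype by TGFb term tests this difference itself. It was positive for Nr4a2 (0.94, SE 0.11, adjusted p = 0.000101) and for Nr4a1 (0.60, SE 0.12, adjusted p = 0.00465), 2 of 6 members called against 4.71% of all genes. For Nr4a2 the call held when each of the 12 libraries was left out, with values from 0.88 to 1.03. For Nr4a1 it was lost, with values of 0.53 to 0.60 and adjusted p of 0.0114 to 0.0152, without any 1 of WT control replicates 1 and 3, WT TGFb replicates 2 and 3, KO control replicates 1 and 3 or KO TGFb replicates 2 and 3. With no filter on low genes the adjusted p of Nr4a1 was 0.0136. For the other 4 members the term was not called, with adjusted p from 0.056 for Egr1 to 0.94 for Egr2.

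With IL4, Egr2 in KO cells was at 28.9, 27.7 and 29.6 RPKM against 19.6, 19.9 and 17.6 RPKM in KO control. These libraries did not overlap, and the difference of 0.57 (SE 0.069, adjusted p = 0.000983) was just under 1.5-fold, in a comparison that called 0 of 6 members and 2.51% of all genes. It was called, with values over 1.5-fold, without KO control replicate 1, KO control replicate 2 or KO IL4 replicate 2. The CD8 T cell markers summed to 14.8 to 16.7 RPKM in KO control and 26.3 to 27.2 RPKM in KO IL4, and the NK cell markers to 1.98 to 2.74 and 3.33 to 4.59 RPKM, and their part was not tested. Nr4a2 was at 11.3, 10.6 and 11.55 RPKM in KO IL4, below all KO control libraries. Its difference was -0.36 (SE 0.068, adjusted p = 0.011), short of both thresholds. Egr1 differed by 0.38 (adjusted p = 0.033), and 3 members had an unadjusted p under 0.05 in limma. The genotype by IL4 term was not called for any member (0 of 6, with none at an unadjusted p under 0.05 in limma, and 0.0414% of all genes). This term was 0.12 (SE 0.080) for Egr2 and 0.01 (SE 0.093) for Nr4a2.

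With TGFb+IL4, Egr2 was at 27.5, 25.3 and 26.9 RPKM in KO cells and Nr4a2 at 10.4, 10.1 and 9.805 RPKM. Both were clear of KO control, with differences of 0.46 (adjusted p = 0.011) for Egr2 and -0.50 (adjusted p = 0.0063) for Nr4a2. Limma called 0 of 6 members where 1.92% of all genes were called, though 4 members had an unadjusted p under 0.05. With the mouse as a block the adjusted p of Nr4a2 was 0.035 and 0.912% of all genes were called. The genotype by TGFb+IL4 term for Nr4a2 was 0.54 (SE 0.090, adjusted p = 0.0016), under 1.5-fold, and 0 of 6 members were called against 4.18% of all genes. Without WT control replicate 2, 1 member was called.

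Between the genotypes, Nr4a3 set the members apart. In KO cells it was at 5.03, 3.92 and 4.14 RPKM in control, 5.51, 5.105 and 4.73 RPKM in TGFb, 4.575, 3.45 and 3.79 RPKM in IL4 and 5.06, 3.035 and 4.42 RPKM in TGFb+IL4. All 12 KO columns, 3.035 to 5.51 RPKM with a median of 4.50, lay below all 12 WT columns, 6.84 to 11.5 RPKM with a median of 9.98. This split needs no reading of the cultures, and 1 of 6 members and 1.61% of the 9726 genes showed it in the same direction. By culture Nr4a3 was lower in KO by a log2 difference of -0.98 (SE 0.11, adjusted p = 0.000999) in control, -0.90 (SE 0.093, adjusted p = 0.000131) in TGFb, -0.99 (SE 0.14, adjusted p = 0.0025) in IL4 and -1.10 (SE 0.15, adjusted p = 0.00101) in TGFb+IL4. The call in IL4 was lost without WT IL4 replicate 1 (adjusted p = 0.0104), without KO IL4 replicate 3 (adjusted p = 0.0147) and with no filter on low genes (adjusted p = 0.025). With the columns as headed the differences were -0.93, -1.03, -1.19 and -0.83, with adjusted p from 0.011 to 0.091 and no call.

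These differences run with others between the same columns. KO libraries are also all numbered after WT libraries. The summed level of 4 monocyte and macrophage markers was 3.34 to 5.96 RPKM in WT control and 0.232 to 1.70 RPKM in KO control, and 6.83 to 16.2 against 2.08 to 4.38 RPKM in TGFb+IL4, with Cd14 at 0 in 8 of the 24 columns. In control cultures the 2 CD8 T cell markers summed to 24.8 to 26.9 RPKM in WT and 14.8 to 16.7 RPKM in KO, the 3 NK cell markers to 3.18 to 3.47 and 1.98 to 2.74 RPKM, the 3 dendritic cell markers to 0.486 to 0.582 and 0.144 to 0.348 RPKM, and the 3 B cell markers to 11.95 to 17.6 and 7.99 to 9.41 RPKM. In TGFb+IL4 the CD8 T cell sum was 25.3 to 26.7 RPKM in WT and 26.3 to 28.3 RPKM in KO, and the NK cell sum was 2.46 to 3.24 and 3.87 to 6.45 RPKM, now higher in KO. There the dendritic cell sum was 1.15 to 1.29 RPKM in WT and 0.372 to 0.901 RPKM in KO, and the B cell sum 14.2 to 28.5 and 13.2 to 22.7 RPKM. Their part in the Nr4a3 result was not tested. In bulk RNA, fewer cells of a type and less RNA per cell cannot be told apart.

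**Figure D3:**
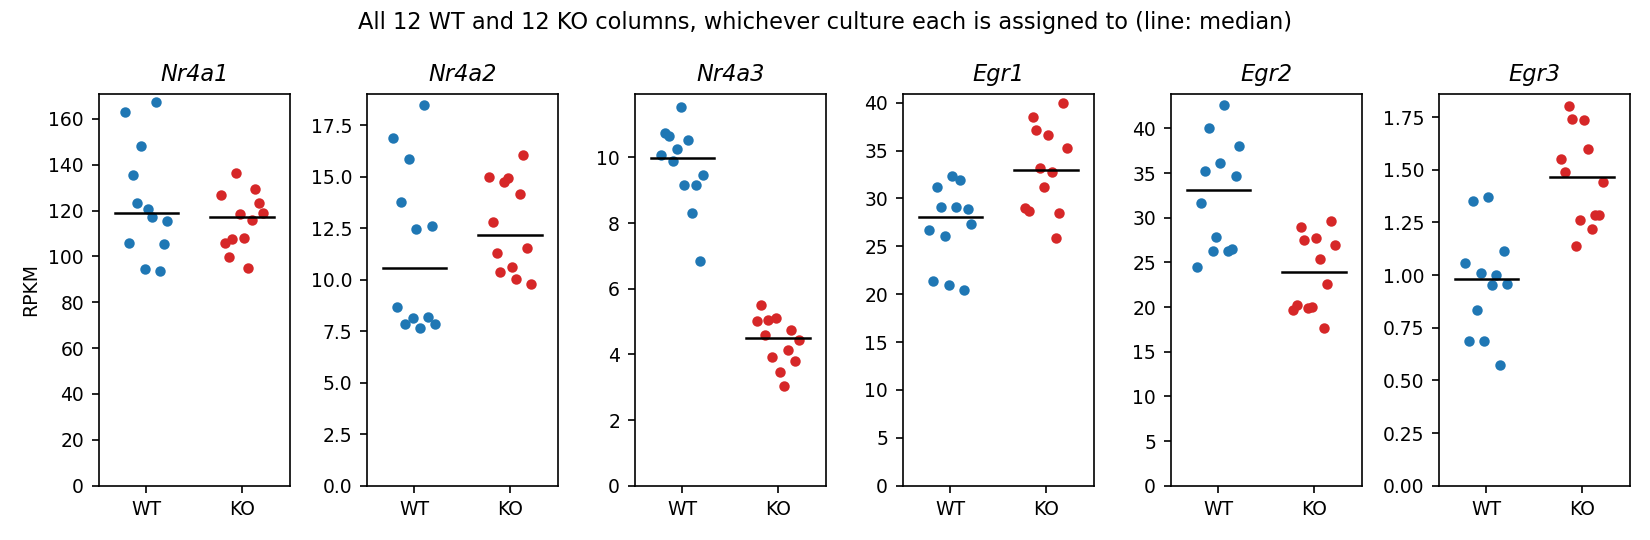
RPKM of each member (y axes) in the 12 WT and the 12 KO columns (x axes), pooled over cultures so that the plot does not depend on how columns are assigned to cultures, with lines for the medians. Nr4a3 alone shows no overlap, while Egr1 and Egr3 tend to be higher in KO, with medians of 32.98 against 28.1 and 1.47 against 0.980 RPKM, and Egr2 lower, with 23.9 against 33.2 RPKM.

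Egr2 was also lower in KO cells, with differences of -0.41, -0.43, -0.29 and -0.58 in control, TGFb, IL4 and TGFb+IL4 and adjusted p of 0.0064, 0.0027, 0.0075 and 0.000474. Each passed the p threshold and none reached 1.5-fold, though in each culture the 3 KO libraries lay below the 3 WT libraries. Pooled over cultures the Egr2 columns overlapped, with KO up to 29.6 and WT from 24.4 RPKM. The difference in TGFb+IL4 was just short of the threshold, and was -0.60 and called with a pseudocount of 0.1. Egr1 differed the other way, by 0.05, 0.47, 0.31 and 0.29, and passed the p threshold in TGFb alone (adjusted p = 0.000276). Egr3 was at 1.55, 1.14 and 1.22 RPKM in KO control, 1.49, 1.26 and 1.29 RPKM in KO TGFb, 1.80, 1.74 and 1.29 RPKM in KO IL4 and 1.742, 1.598 and 1.442 RPKM in KO TGFb+IL4. Its KO and WT libraries did not overlap in control, TGFb and TGFb+IL4. Pooled over cultures they did overlap, with WT up to 1.37 and KO from 1.14 RPKM. The difference in TGFb+IL4 was 0.44 (SE 0.091, adjusted p = 0.0081). In that test Egr3 passed the minimum of 1 RPKM only through KO, with a mean of 1.59 RPKM against 0.917 RPKM in WT.

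Nr4a2 was higher in KO than in WT in TGFb, by 0.74 (SE 0.086, adjusted p = 0.000266), where the 3 KO libraries were above the 3 WT libraries. Under control and IL4 its differences of -0.21 and -0.20 did not pass the test. In TGFb+IL4 the difference was 0.34 with an adjusted p of 0.0077, under 1.5-fold. Nr4a1 differed by -0.33, 0.26, -0.12 and -0.15 in the 4 cultures, none past the p threshold. Members called between genotypes numbered 1 of 6 in control (2.46% of all genes), 2 of 5 in TGFb (9.68%), 1 of 6 in IL4 (2.99%) and 1 of 6 in TGFb+IL4 (8.44%). With a pseudocount of 0.1 the last count was 3, adding Egr2 and Egr3, and it was 2 without WT TGFb+IL4 replicate 3, KO TGFb+IL4 replicate 1 or KO TGFb+IL4 replicate 3. Since Egr3 passed the minimum of 1 RPKM there only through KO, its call is given as a value and is not support.

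The wider pathway was read from 6 lists. Of the 3 genes around the EGR factors, Nab2, a co-repressor that EGR proteins induce and that binds them, was at 24.8, 22.5 and 27.1 RPKM in WT control, 16.5, 13.7 and 14.3 RPKM in WT TGFb and 12.4, 12.7 and 11.1 RPKM in WT TGFb+IL4. The WT libraries with TGFb lay below all WT control libraries. Nab2 fell by 0.71 (SE 0.089, adjusted p = 0.0011) with TGFb and by 0.98 (SE 0.080, adjusted p = 2.22e-05) with TGFb+IL4, and its genotype by TGFb term was 0.77 (SE 0.15, adjusted p = 0.0054). In KO cells Nab2 was at 27.9, 30.5 and 21.7 RPKM in control and 28.0, 28.0 and 26.9 RPKM in TGFb, and it was higher than in WT by 0.86 in TGFb and by 0.76 in TGFb+IL4. Egr4 had a mean of 1.78 RPKM in KO TGFb and in KO TGFb+IL4, 0.553 RPKM in WT TGFb, 0.555 RPKM in WT TGFb+IL4 and 1.74 RPKM in WT IL4. Its differences of 0.83 between genotypes in each of these cultures and of -0.82 from WT IL4 to WT TGFb+IL4 are given as values, since it passed the minimum of 1 RPKM only through the group where it is high. Nab1, the other co-repressor, rose by 0.59 (adjusted p = 0.000581) from WT TGFb to WT TGFb+IL4.

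In WT TGFb+IL4 against control, the list of 33 other immediate early genes had 30 tested, of which 5 rose and 1 fell, with a median log2 difference of 0.00 against 0.03 over all genes, of which 9.27% were called, 631 up and 279 down. Those that rose were Klf2 (1.43), a quiescence factor, Dusp4 (1.29), a MAP kinase phosphatase, Jun (1.07), Klf10 (1.02), a TGF-β early response gene, and Irf4 (0.72), and the gene that fell was Gadd45b (-0.69). With TGFb alone 4 of the 30 rose and 5 fell, with a median of -0.18 against 0.01 and 5.71% called over all genes. These included Fos, which fell by 1.08 (SE 0.14, adjusted p = 0.0014), Gadd45b (-0.88), Bhlhe40 (-0.83), Atf3 (-0.62) and Pim1 (-0.61), while Klf2, Klf10, Dusp4 and Jun rose. With IL4 alone 2 of the 30 rose, Atf3 (1.595) and Nfil3 (1.05), against 1.29% of all genes called.

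Of the 24 genes tied to activation and anergy through EGR or NR4A factors, 20 were tested in WT TGFb+IL4 against control, where 2 rose and 3 fell, with a median of 0.21 against 0.03 and 9.27% called over all genes. Tox2 (1.42), a factor of exhaustion and follicular helper programs, and Socs1 (0.89), a feedback inhibitor of cytokine signaling, rose. Tox2 passed the minimum only through the group where it is high, at a mean of 0.727 RPKM in WT control and 3.595 RPKM in WT TGFb+IL4. Crtam (-1.55), Tnfrsf9 (-0.996), which encodes the costimulatory receptor 4-1BB, and Fasl (-0.94), the death ligand, fell. With TGFb alone 1 rose, Tox2, and 5 fell, against 5.71% of all genes called, the last being Crtam (-1.56), Lag3 (-1.15), Fasl (-1.07), Tnfrsf9 (-0.87) and Cblb (-0.86). Here too Tox2 passed the minimum only through the group where it is high, at a mean of 2.447 RPKM in WT TGFb. With IL4 alone 2 of 19 were called, against 1.29% of all genes: Socs1 rose by 0.82 and Ctla4 fell by 0.60. The genotype by TGFb term was called for 5 genes with a positive and 1 with a negative value of 19 tested, against 4.71% of all genes. The positive terms were those of Crtam, Lag3, Fasl, Tnfrsf9 and Cblb, from 0.83 for Tnfrsf9 to 1.53 for Crtam. This term contains the WT TGFb difference by which these genes were picked, so it is not separate support.

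The upstream arms were read against WT control, where 5.71% of all genes were called with TGFb, 1.29% with IL4 and 9.27% with TGFb+IL4. Of 9 tested genes among 11 partners and regulators of NR4A, 0 were called by limma in any of these comparisons. Their medians were 0.03, -0.04 and 0.07 in the same order, though 3, 1 and 5 of them had an unadjusted p under 0.05. Nfatc2, the only called gene of 6 tested in the calcineurin-NFAT list of 7, rose by 0.59 with TGFb and 0.88 with TGFb+IL4. Elk3, a ternary complex factor and the only called gene of 6 in the list of serum response factor and its partners, rose by 1.22 and 1.32. In KO TGFb, where 0.0105% of all genes were called, limma called 0 of the 72 tested genes of the 6 lists, with 1 at an unadjusted p under 0.05. In KO TGFb+IL4 1.92% of all genes were called. There the immediate early list of 29 tested had 2 that rose, Atf3 (2.49) and Nfil3 (1.68), and 1 that fell, Dusp6 (-0.59). The activation and anergy list of 19 tested had 2 that rose and 4 that fell, and 1 of 9 tested partners and regulators of NR4A fell.

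Between the genotypes under control, 1 of 30 tested immediate early genes was higher in KO, Dusp6 (0.64), and 8 were lower, with a median of -0.18 against 0.02 over all genes, of which 2.46% were called, 61 higher and 176 lower. Those that were lower were Atf3 (-1.23), Dusp4 (-1.02), Jun (-0.98), Klf6 (-0.87), Csrnp1 (-0.80), Bhlhe40 (-0.75), Nfil3 (-0.60) and Junb (-0.59). Crem, a CREB family member among the partners of NR4A, was also lower (-0.63, adjusted p = 0.000458). Nr4a3 (-0.98) was thus lower together with these genes, while Nr4a1 (-0.33) and Nr4a2 (-0.21) were not called.

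The genes whose pattern over the 24 columns was most like each member differed between members. Pearson's r of log2 values is given as a description, since the columns share genotype, mouse and depth. For Nr4a2 these were Tnfrsf9 (0.956), Gfod1 (0.951) and Gramd1b (0.946), and Tnfrsf9 ran from 87.9 to 185.5 RPKM in the WT columns. For Nr4a1 they were Cfl1 (0.783), Snx11 (0.761) and Mlf2 (0.760), a lower top value than for any other member. For Nr4a3 they were Actb (0.955), Lrrc58 (0.931) and Litaf (0.927). Actb, the cytoplasmic actin often used as a reference gene, had a median of 6943 RPKM in the WT and 5294 RPKM in the KO columns, with a lowest WT column of 5895 and a highest KO column of 5959 RPKM.

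For Egr1 the nearest genes were Lcp2 (0.938), the T cell receptor adaptor SLP-76, Map4k1 (0.925) and Nsmce1 (0.924), and for Egr3 Apobec3 (0.935), Grap (0.933) and Tnfsf8 (0.930). For Egr2 they were Slc15a3 (0.965), Ctsb (0.953) and Syngr2 (0.948). Among the members themselves, Nr4a1 and Nr4a2 had r = 0.80 in the 12 WT and 0.67 in the 12 KO columns. Egr1 and Egr3 had 0.86 and 0.45, and Egr1 and Egr2 had 0.43 and 0.90. Nr4a2 and Egr2 ran against each other in both genotypes, with -0.54 and -0.78. Nr4a1 and Egr3 changed sign, with 0.55 in WT and -0.74 in KO. Nr4a3 had no r beyond 0.42 in size with any other member within a genotype.

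DNase I hypersensitive sites ask whether chromatin at the members was open in cells of the same genotypes and cultures, with 1 library per condition and thus no error. These libraries are numbered apart from those of RNA-seq, and the labels do not say that both came from the same cells. Within 10 kb of the 6 genes the 4 lists held 27 separate regions, and 16 of them (59.3%) were in all 4 lists, against 43.2% of the 50176 regions of the whole genome. Regions at the members were missing from WT control in 2 cases, from KO control in 3, from WT TGFb+IL4 in 7 and from KO TGFb+IL4 in 9. The lists differ in length, with 44298, 33665, 33880 and 27145 peaks in the same order, and in median fold enrichment over the local background, from 4.69 to 5.63. With an equal number of top peaks from each list, 17 to 19 peaks stood at the members in every list, and the order of the lists was another.

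Every member had a site at its start, or up to 608 bases before it, in all 4 lists. For Nr4a1 it was at chr15:101096839-101097493 (mm9), with its summit 70 bases before the start and fold enrichment of 6.61 in WT control, 6.63 in WT TGFb+IL4, 5.74 in KO control and 5.47 in KO TGFb+IL4. It stood 20.6 to 21.4% from the top of each list, so its rank was nearly constant over the lists. For Nr4a2, chr2:56967226-56967793 spanned the start of the shorter transcripts, with 4.85, 4.99, 4.19 and 4.50, at 35.8 to 43.3% from the top. Its RNA was lower with TGFb+IL4 in WT, and its promoter site was 4.85-fold in WT control and 4.99-fold in WT TGFb+IL4. Its other sites did not all move alike between these lists. A site 1723 bases before that start was 4.0-fold and 3.31-fold, at 52.6 and 79.8% from the top. The site before the longer transcripts was 5.21-fold and 5.91-fold. A weak site 2702 bases before the start was in WT control and KO control only, at 92.0 and 91.7% from the top.

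The highest site of Nr4a3 was in an intron, at chr4:48087488-48088134, 25892 bases past the nearest coding start. It had fold enrichment of 8.83 in WT control, 7.75 in WT TGFb+IL4, 5.99 in KO control and 5.75 in KO TGFb+IL4, and stood 21.5, 21.8 and 32.1% from the top in the last 3 of these and nearer to the top in WT control. The site at its start was at 3.83, 3.01, 2.56 and 3.96 in the same order. At Egr2 the strongest site of all members by rank, chr10:66999742-67000711, lay in an intron of the longer transcripts 419 bases before the main start, and was 7.95-fold and 6.74% from the top in WT control, 7.56-fold and 8.69% in WT TGFb+IL4, 5.09-fold and 19.6% in KO control and 6.66-fold and 9.3% in KO TGFb+IL4. A further site after Egr2, chr10:67011637-67012534, had 7.39, 6.32, 5.73 and 5.96.

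Egr3, the member with the least RNA, had a strong site 608 bases before its start, at chr14:70476432-70476924, with fold enrichment of 7.31 in WT control, 6.36 in WT TGFb+IL4, 5.06 in KO control and 4.44 in KO TGFb+IL4. It stood 11.5, 17.9, 20.7 and 36.0% from the top in the same order, against 20.9, 20.6, 20.8 and 21.4% for the promoter site of Nr4a1, the member with the most RNA, so which of these ranked higher depended on the list. Egr1 on chromosome 18 had 5 regions, all before the gene, and its site 73 bases before the start had 4.70, 5.13, 4.42 and 4.37.

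**Figure D4:**
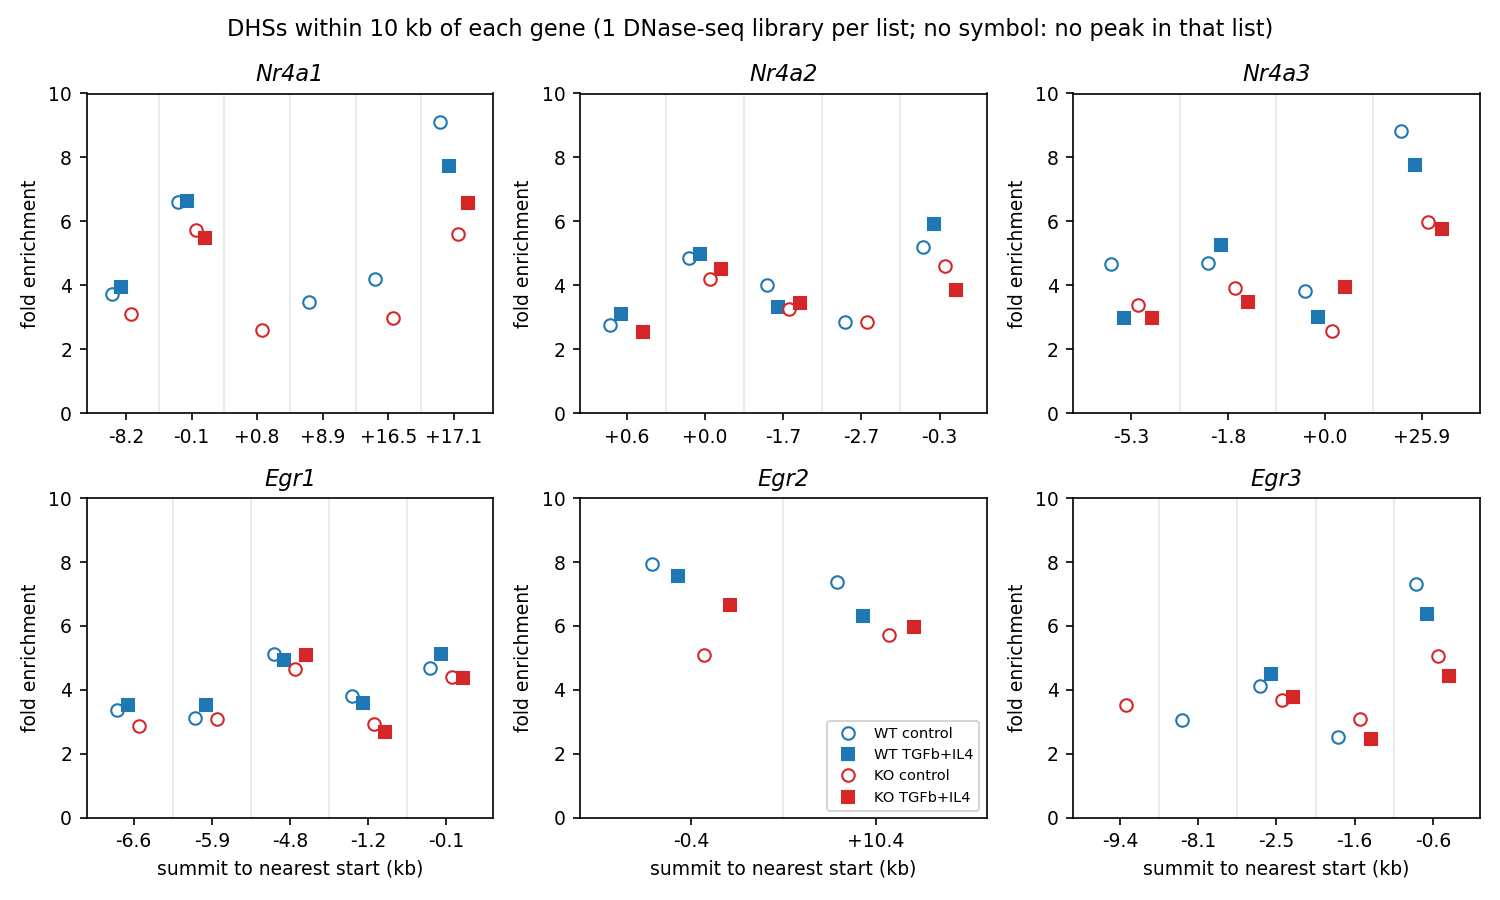
Fold enrichment of each DHS within 10 kb of a member (y axes) in the 4 lists, by the distance of its summit from the nearest coding transcript start in kb (x axes, negative before the start, in genome order and not to scale). Open circles are control and filled squares TGFb+IL4, with WT in blue and KO in red, and every panel has a site within 608 bases of a start in all 4 lists.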

How the data were processed

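RNA-seq of 24 cultures of CD4+ T cells (Smart-seq2, 3 replicates, read as mice, for each of 8 groups) and DNase-seq of 4 cultures were used. The authors aligned with Bowtie2 to mm9 and dropped poorly mapped and duplicate reads, which can lower the values of highly expressed genes. They deposited RPKM for 24089 genes, 1 column per library. For DNase-seq the authors deposited narrow peaks called by MACS on each library alone, with a fold enrichment (a ratio over local background) and the −log10 of p and q of each peak. Versions and the annotation are not given in the sources used here, and read depth is unknown.

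Columns were read by position, since 6 of 8 headings that could be checked against read counts name another library. The numbers of the mice pair libraries within a genotype by their labels, and same-mouse deviations correlated with a median of 0.06 in WT and 0.19 in KO. Tests used limma 3.58.1 in R 4.3.3 (moderated, with a trend) on log2(RPKM + 1), genes with a mean of at least 1 RPKM over the libraries in the fit and the compared groups only, with Benjamini-Hochberg adjustment over all genes tested. The fit was tested on simulated data. The p-values measure the spread between numbered replicates of 1 genotype, which are read as mice from the labels. Genotype, tamoxifen and library order cannot be told apart. DHSs were taken within 10 kb of each gene, and motifs within 250 bases before a start.

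Genes named are the members, Tgfbr1, Egr4, Nab1 and Nab2, up to 4 called genes of largest change per list in WT TGFb+IL4, and the 3 most similar genes of each member. Other list genes named were chosen after their values were seen. The members and lists were chosen with earlier results of these data known. Alternatives were the deposited headings, a pseudocount of 0.1, no filter, a minimum of 5 RPKM, median-ratio scaling, all 24 libraries in one fit, the mouse as a block, an adjusted p under 0.05, each library left out, and the counted libraries alone.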

Additional observations from a re-analysis of the deposited data

Results flagged for a closer look

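The effect of TGF-β differed between genotypes for 2 members, by the genotype by TGFb term in limma. The term was 0.94 for Nr4a2, from a WT difference of -0.95 and a KO difference of -0.01, and 0.60 for Nr4a1, from -0.70 and -0.10. For Nr4a1 the call was lost in most of the 12 fits that left out 1 library, with adjusted p up to 0.0152. It was also lost with no filter on low genes. All 3 WT libraries with TGFb were below all 3 WT control libraries for both genes, while the KO libraries overlapped. The effect of TGF-β on Nr4a1 in WT also differed with IL-4, by a TGFb by IL4 term of 0.68, from -0.70 without IL4 to -0.02 with it. This call too was lost without some single libraries, with adjusted p up to 0.0125 in limma.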

How the results depend on the processing

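Counts of called members follow, for the settings that moved them. Except for the headings, the share of all genes called under each setting is not given. These counts therefore do not show whether members moved more than other genes. The columns as headed gave 0 in WT TGFb and in WT TGFb+IL4 against control, in WT TGFb+IL4 against IL4, in KO against WT under all 4 cultures, in genotype by TGFb and in TGFb by IL4, where Nr4a1 turned to -0.20. With the headings, calls over all genes numbered 0 or 7 in each comparison. Median-ratio scaling gave 1 in WT TGFb+IL4 against control. A pseudocount of 0.1 gave 1 in KO IL4 against control, 3 in KO against WT under TGFb+IL4 and 1 in genotype by TGFb+IL4. Among the 3 was Egr3, which passed the minimum only through KO. No filter gave 0 in KO against WT under IL4, 1 in genotype by TGFb and 0 in TGFb by IL4, where more genes are tested. The counted libraries alone gave 0 in TGFb by IL4 (Nr4a1 0.72, adjusted p = 0.023). Leaving out each library gave 0 to 1 in KO IL4 against control, KO against WT under IL4, genotype by TGFb+IL4 and TGFb by IL4, and 1 to 2 in KO against WT under TGFb+IL4 and genotype by TGFb, and did not move the others. With the mouse as a replicate block the same numbers of members were called in every comparison that allows it, for example 2 in WT TGFb against control (Nr4a2 -0.95, adjusted p = 1.62e-05). In DHS counts, a window of 50 kb gave 54, 46, 52 and 43 peaks in WT control, WT TGFb+IL4, KO control and KO TGFb+IL4 instead of 25, 20, 24 and 18. By Spearman's rho the nearest gene was Dusp4 for Nr4a3 (0.920), Pradc1 for Egr1 (0.877) and Sik3 for Egr3 (0.935), and it did not change for the other 3 members. The cause of these moves was not tested.

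Read numbers are unknown, which leaves counting error unmeasured, and Egr3 and Egr4 near 1 RPKM are the least certain. The KO cultures rest on column order alone. With 3 libraries a group, effects under 1.5-fold were often past the p threshold and were not called.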
